A study of Mus musculus with 10 samples.

Results

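The genes described here are the fatty acid elongases, Elovl1 to Elovl7, and the front-end desaturases, Fads1, Fads2 and Fads3. They were chosen by name, and all 10 were among the 40503 genes measured, with 21 of the 84046 transcripts measured. The data are RNA-seq of the gonadal white fat of female C57BL/6 mice of 12 weeks, a visceral depot. In 5 libraries the labels give a Med19 knockout limited to adipose tissue and induced with tamoxifen (MED19-iAKO, here KO, animals 1, 4, 7, 8 and 17), and in the other 5 the genotype WT (animals 2, 9, 19, 86 and 89). Its target, Med19, is part of Mediator, through which transcription factors reach RNA polymerase II. Tamoxifen at 100 mg/kg for 5 days, with harvest 14 days later, is described for the iAKO mice. The labels used here do not say whether the WT mice also received it, and they do not name the Cre driver.

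Elongases sit in the endoplasmic reticulum and carry out the condensing step of fatty acid elongation, in which malonyl-CoA lengthens an acyl-CoA. Each enzyme prefers certain substrates, so the mix of elongases shapes which chain lengths a cell can make: Elovl6 extends palmitate towards stearate, Elovl1 makes saturated and monounsaturated very long chains that enter ceramides, and Elovl5 and Elovl2 extend polyunsaturated chains. Front-end desaturases put a double bond between an existing one and the carboxyl end, and Fads2, Elovl5 and Fads1 act in turn to make arachidonic acid from linoleic acid.

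Between 14444258 and 20183633 reads per library were recovered from the deposited RPKM values (reads scaled to gene length and library size). Med19 RNA did not separate the groups, with 6.79 ± 0.85 (KO) and 6.70 ± 0.89 RPKM (WT; SD, n = 5 each), so the genotype of a library rests on its label. Of 17038 genes tested with limma on log2(RPKM + 0.5), 681 were called higher in KO (4.00%) and 332 lower (1.95%) at a Benjamini-Hochberg adjusted p under 0.05, and the median difference over all tested genes was 0.09 (log2). Adipocyte markers fell, 8 of 9, with a summed level of 5528 to 5744 RPKM in KO and 13508 to 19480 RPKM in WT, and Adipoq was 307 ± 42 against 713 ± 99 RPKM. Of the other marker lists, 2 of 5 neutrophil genes rose (S100a9 and Cxcr2), with summed levels of 419 to 781 and 170 to 346 RPKM. The Cxcr2 call (limma, adjusted p = 0.0498) was lost under both scalings and kept in 1 of 10 fits without single libraries. None of 6 macrophage genes was called, with summed levels of 1213 to 1422 and 936 to 1252 RPKM. Their median difference was 0.35 (log2). Single genes were called in other lists. Lum, of the progenitor and fibroblast list, rose by 0.47 (limma, adjusted p = 0.0395) and lost its call under both scalings. Cspg4, of the pericyte list, differed by -0.79 and Ppara, of the brown or beige list, by -0.91 (limma, adjusted p = 0.00427 and 0.00417). The tissue is bulk, so fewer cells of a type and less RNA per cell cannot be told apart, and the part of these shifts in the results below was not tested. The p-values measure the spread between these 10 animals.

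The promoters of Elovl1, Elovl5 and Elovl6 are shown because these elongases carried the differences described next: Elovl1 and Elovl5 were higher in KO, and Elovl6 had the largest difference in the other direction, short of the threshold. The sequences are from RefSeq on GRCm38.p6 and lie before a start of each gene on the plus strand. They are at chr4:118427843-118428092 for Elovl1, chr9:77917115-77917363 for Elovl5 and chr3:129532136-129532354 for Elovl6. Capitals mark matches on either strand to any of 5 motifs searched. One is the sterol regulatory element, spelled TCACNCCAC, to which SREBP proteins bind. Another is the E-box, spelled CACGTG, which basic helix-loop-helix factors such as USF bind. The CCAAT box was searched as the letters of its name, for which the factor NF-Y is known. The GC box, spelled GGGCGG, is known as a site of Sp family factors. The TATA box, spelled TATAAA, marks where the core transcription machinery assembles in some promoters.
Elovl1: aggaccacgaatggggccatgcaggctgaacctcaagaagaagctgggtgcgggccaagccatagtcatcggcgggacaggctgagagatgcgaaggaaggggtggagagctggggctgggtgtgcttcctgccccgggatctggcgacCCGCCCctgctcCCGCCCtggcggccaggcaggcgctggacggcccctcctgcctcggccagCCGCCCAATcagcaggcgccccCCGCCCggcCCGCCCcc
Elovl5: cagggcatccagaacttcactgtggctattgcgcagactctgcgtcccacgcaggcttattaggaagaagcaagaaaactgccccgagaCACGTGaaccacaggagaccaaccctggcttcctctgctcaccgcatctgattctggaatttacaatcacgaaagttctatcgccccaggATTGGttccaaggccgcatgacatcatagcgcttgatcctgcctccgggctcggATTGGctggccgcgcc
Elovl6: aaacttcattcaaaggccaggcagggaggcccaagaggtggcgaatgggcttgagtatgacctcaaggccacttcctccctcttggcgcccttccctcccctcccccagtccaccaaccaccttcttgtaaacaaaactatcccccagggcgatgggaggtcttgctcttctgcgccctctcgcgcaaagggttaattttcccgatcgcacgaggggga
The Elovl1 stretch held 5 GC boxes and 1 CCAAT box, and 1 GC box overlapped the CCAAT box. A second Elovl1 window, at chr4:118429451-118429750, is not printed. It held GC boxes beginning at -48 and -37 from its start, and no CCAAT box. The Elovl5 stretch held 1 E-box and 2 CCAAT boxes, and the Elovl6 stretch held none of the 5 motifs. Over 32851 RefSeq windows of 300 bases, 35.7% held a GC box, 37.4% a CCAAT box, 7.15% an E-box, 13.6% a TATA box and 1.24% the sterol regulatory element as spelled. A match is only a description of the letters. In all, 8 of the 10 genes had a window, the exceptions being Elovl3 and Fads1.

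The first question was which elongases and desaturases the fat depot expressed, and at what level. In WT, Fads3 was highest at 59.1 ± 9.7 RPKM, followed by Fads1 (31.1 ± 2.6), Elovl5 (28.2 ± 3.4), Elovl1 (25.3 ± 1.7), Fads2 (18.8 ± 1.2) and Elovl6 (11.5 ± 7.1). Elovl4 stood at 1.31 ± 0.35 RPKM, and Elovl7 (0.124 ± 0.048), Elovl2 (0.108 ± 0.065) and Elovl3 (0.0906 ± 0.132) stood lowest (SD, n = 5 each). The ranges of Fads3 and Fads1, of Elovl1 and Fads2, of Elovl6 and Elovl4, and of Elovl4 and Elovl7 were separate, and those of the other neighbours in this order overlapped. In KO the order of the upper members was Fads3 (46.7 ± 8.8 RPKM), Elovl5 (36.5 ± 2.0), Elovl1 (32.7 ± 1.4), Fads1 (32.5 ± 1.3), Fads2 (22.1 ± 2.3) and Elovl6 (3.80 ± 0.54). Among these, the ranges of neighbours from Fads3 to Fads1 overlapped, while Fads1, Fads2 and Elovl6 were separate from each other, and Elovl6 from Elovl4.

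**Figure D1:**
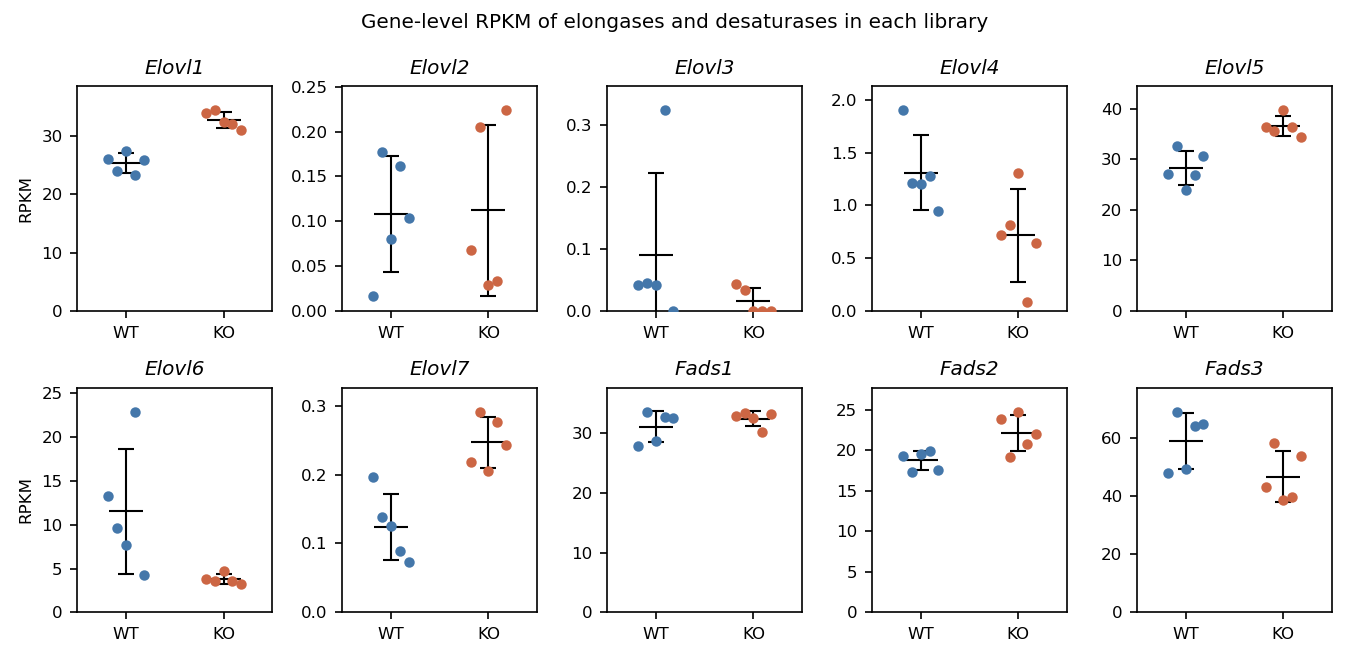
Gene-level RPKM of each elongase and desaturase (vertical axes, each from 0 and on its own scale) in WT and KO libraries. Points are animals, and bars are the mean and SD of 5. Elovl1, Elovl5 and Elovl7 are the genes whose KO points all lie above the WT points, and the WT points of Elovl6 run from 4.31 to 22.9 RPKM.

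Of the 10 genes, 7 passed the filter on low values, and limma called 2 of them higher (background 4.00%) and 0 lower (background 1.95%). At an unadjusted p under 0.05, 3 were higher (Elovl1, Elovl5 and Fads2) and 3 were lower (Elovl4, Elovl6 and Fads3). Their median log2 difference was 0.06, beside 0.09 over all genes tested. All KO libraries lay above all WT libraries for 2 of the 7, as for 6.96% of all genes tested, and no member had all KO libraries below.

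Elovl1, the elongase of saturated and monounsaturated very long chains, rose in KO. It measured 33.9, 34.4, 32.3, 31.9 and 31.0 RPKM in KO 1, 4, 7, 8 and 17, and 25.9, 24.0, 27.5, 23.2 and 25.9 RPKM in WT 2, 9, 19, 86 and 89. Every KO library exceeded every WT library, with means of 32.7 ± 1.4 RPKM in KO and 25.3 ± 1.7 RPKM in WT (SD). The difference was 0.37 ± 0.06 (log2, SE), a ratio of 1.29 with a 95% interval of 1.18 to 1.41 (limma, adjusted p = 0.00773). The call held when each library was left out in turn, and was lost under median-ratio scaling (0.27, limma adjusted p = 0.0556). The GENCODE M21 annotation places the end of Elovl1 over the end of Cdc20, a cell cycle gene on the opposite strand. Cdc20 measured 7.90 ± 1.31 RPKM (KO) and 5.96 ± 0.54 RPKM in WT, with no call (limma, adjusted p = 0.0759). No source used here says whether reads were counted by strand, and the part of shared reads in the Elovl1 value was not tested.

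Elovl5, which extends the polyunsaturated chains made by Fads2, also rose, by 0.37 ± 0.08 (log2, SE; limma, adjusted p = 0.0307). The KO libraries measured 36.5, 35.6, 39.7, 36.4 and 34.4 RPKM in the order given above. The WT libraries measured 27.1, 32.5, 24.0, 26.8 and 30.6 RPKM. The groups did not overlap, but the highest WT library, WT 9, came close to the lowest KO library, KO 17. The ratio was 1.30 with a 95% interval of 1.14 to 1.47. The Elovl5 call was the less stable of the pair: it was lost when KO 1, KO 7, KO 8, WT 2, WT 19 or WT 86 was left out, under median-ratio scaling (0.28, limma adjusted p = 0.166), under quantile normalization (limma adjusted p = 0.144) and without a filter (limma adjusted p = 0.0533). Under median-ratio scaling 102 genes of the whole table were called higher and 414 lower, against 681 and 332 on the deposited values.

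Elovl6, which turns the product of fatty acid synthase into stearate, differed most in size and was not called. It measured 3.79, 3.61, 4.72, 3.58 and 3.29 RPKM in the KO libraries. In the WT libraries it measured 13.2, 9.64, 7.64, 22.9 and 4.31 RPKM. The KO libraries lay close together, while the WT libraries were spread widely, with WT 86 highest, and WT 89 fell inside the KO range. The difference was -1.30 ± 0.34 (log2, SE), a ratio of 0.407 with a 95% interval of 0.240 to 0.692, and it missed the threshold (limma, adjusted p = 0.0538). Without WT 89 it was -1.58 and passed (limma, adjusted p = 0.0176). It also passed with a filter at 1 RPKM (adjusted p = 0.0495) and with array weights (adjusted p = 0.0399). Without WT 86, the highest WT library, it was -1.01 and did not pass (limma, adjusted p = 0.0738). Of the 10 fits without single libraries, 1 called it. The difference also missed the threshold without a filter (limma, adjusted p = 0.0913) and under median-ratio scaling (limma, adjusted p = 0.0621).

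**Figure D2:**
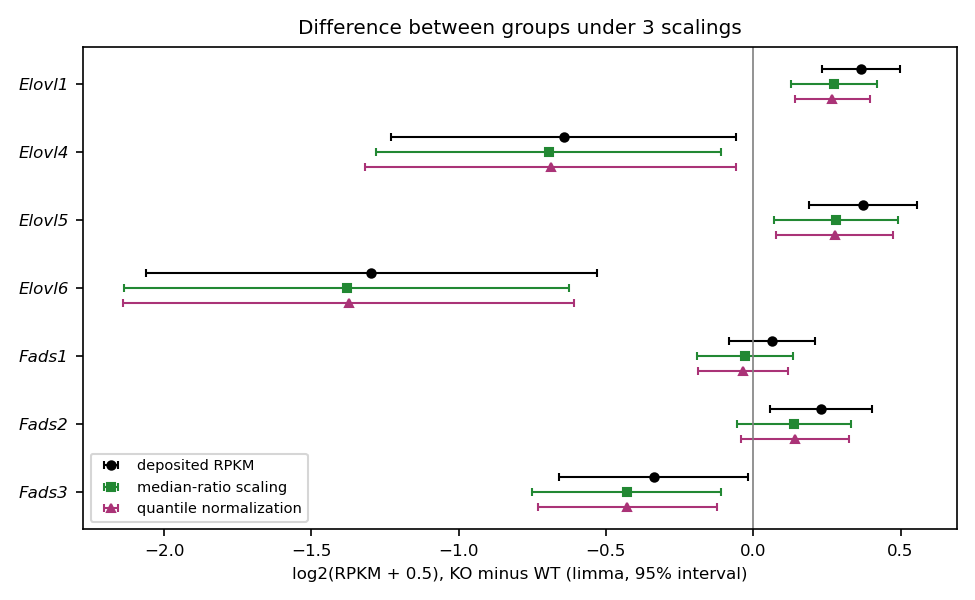
Difference between KO and WT in log2(RPKM + 0.5) for the 7 tested genes (horizontal axis, points with 95% intervals from limma) on the deposited RPKM, after median-ratio scaling and after quantile normalization. Both scalings move every point to the left, which takes Fads1 across 0, and the intervals of Elovl1 and Elovl5 stay above 0 while those of Elovl6 stay below it.

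Fads2, the first and rate-limiting desaturase of polyunsaturated fatty acid synthesis, measured 23.9, 19.2, 24.8, 20.8 and 22.1 RPKM in KO and 19.4, 17.3, 19.6, 19.9 and 17.6 RPKM in WT. The groups overlapped in KO 4, and the difference of 0.23 ± 0.08 (log2, SE) was not called (limma, adjusted p = 0.103). Fads1, which acts last before arachidonic acid, ranged from 30.2 to 33.4 RPKM in KO and from 27.9 to 33.6 RPKM in WT. Its difference was 0.06 ± 0.07 (log2, SE; limma, adjusted p = 0.607), with a 95% interval of the ratio from 0.944 to 1.16, and it changed sign under both scalings. Fads3, the least characterised enzyme of the family, known to desaturate sphingoid bases, measured 43.1, 58.2, 38.7, 39.9 and 53.9 RPKM in KO and 48.1, 69.1, 49.2, 64.1 and 64.7 RPKM in WT. The 3 lowest libraries were KO, while KO 4 and KO 17 lay above WT 2 and WT 19. The difference of -0.34 ± 0.15 (log2, SE) was not called (limma, adjusted p = 0.183). The 3 Fads genes lie next to each other in the genome, and on the deposited values their differences ran from -0.34 to 0.23 with none called.

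Elovl4, which makes the ultra-long chains of retina and skin, measured 0.718, 0.818, 1.31, 0.0862 and 0.646 RPKM in KO and 1.90, 1.22, 1.203, 1.28 and 0.951 RPKM in WT. KO 7 lay within the WT range, KO 8 held 4 reads, and the difference was not called (-0.64 ± 0.27 log2, limma adjusted p = 0.166). At gene level its RPKM was 1.10 to 21.4 times the sum of its 2 annotated transcripts, with a median of 7.44. Those sums stayed between 0.0616 and 0.215 RPKM and overlapped between the groups, so in most libraries the larger part of the Elovl4 gene value had no counterpart in the transcript table.

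Elovl7, another elongase of saturated long chains, was low but separated the groups. It measured 0.218, 0.291, 0.205, 0.276 and 0.243 RPKM in KO and 0.196, 0.138, 0.125, 0.0891 and 0.0739 RPKM in WT, with 116 and 52 recovered reads in sum. All KO libraries lay above all WT libraries, as for 4.25% of genes when no filter on low values was set. It was below the filter of the main test. In a limma-voom fit on recovered reads, added after the data were seen, it was called higher (1.01 log2, limma adjusted p = 0.0356), as were 4.53% of the 18285 genes of that fit. In the transcript table its values overlapped, at 0.357 to 0.517 RPKM in KO and 0.279 to 0.400 RPKM in WT.

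The remaining elongases were close to the limit of detection. Elovl2 extends polyunsaturated chains beyond Elovl5 and is best known in liver and testis. It had 39 recovered reads over the 5 KO libraries and 31 over the WT libraries. Its levels ranged from 0.0290 to 0.224 and from 0.0163 to 0.177 RPKM. Elovl3, an elongase of brown fat and sebaceous glands, had 2 recovered reads in KO and 10 in WT, of which 7 were in WT 86. It was at 0 in KO 7, KO 8, KO 17 and WT 89, where a count of 0 allows up to 3 reads. WT 86 also had the highest level of Ucp1, the uncoupling protein of brown fat, at 13.4 RPKM, beside 0.203 to 2.78 RPKM in the other WT libraries and 0 to 5.70 RPKM in KO. The part of brown or beige adipocytes in the Elovl3 value was not tested.

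In the transcript table, 14 of the 21 transcripts passed the filter and 0 were called (limma), beside 0.544% of all transcripts tested, with 4 at an unadjusted p under 0.05. The main Elovl5 transcript, ENSMUST00000034904, was the single one whose groups did not overlap (background 1.57%). It measured 42.6 ± 2.1 RPKM in KO and 35.8 ± 3.8 RPKM in WT (limma, adjusted p = 0.354). The sum over all 4 Elovl5 transcripts overlapped between the groups, at 42.6 to 52.3 RPKM in KO and 32.1 to 43.4 RPKM in WT. Elovl1 had 7 transcripts, 6 of them tested, whose values overlapped one by one, while the sum over all 7 was 57.8 to 60.6 RPKM in KO and 41.4 to 49.6 RPKM in WT. The Elovl6 transcript, ENSMUST00000071402, measured 2.54 ± 0.37 and 7.86 ± 4.76 RPKM (limma, adjusted p = 0.211).

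The balance between members was compared within each library, which removes a scaling factor shared by all its genes, except for the added 0.5. A shift in cell mix that acts unequally on the members is not removed, and its part was not tested. Elovl6 over Elovl5, as a ratio of (RPKM + 0.5), was 0.116, 0.114, 0.130, 0.111 and 0.109 in KO and 0.497, 0.307, 0.332, 0.856 and 0.155 in WT. Every KO library lay below every WT library, WT 89 included. The difference was -1.67 (log2), with p = 0.00794 in a 2-sided exact permutation test, the smallest that groups of 5 and 5 allow, and 0.0238 after Benjamini-Hochberg adjustment over the 6 ratios compared. Elovl6 over Elovl1 gave 0.118 to 0.159 in KO and 0.182 to 0.985 in WT, a difference of -1.66 (exact permutation p = 0.00794, adjusted 0.0238). Both ratios share Elovl6 and tie at the smallest p, so they are not independent results. As a share of summed elongase RPKM, Elovl6 made up 4.71 to 6.02% in KO and 6.95 to 30.6% in WT.

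The other 4 ratios did not pass. Fads3 over Fads2 was 1.55 to 2.99 in KO and 2.45 to 3.91 in WT, a difference of -0.57 (exact permutation p = 0.0317, adjusted 0.0635). Fads1 over Fads2 differed by -0.17 (adjusted exact permutation p = 0.238) and Elovl5 over Fads2 by 0.14 (adjusted exact permutation p = 0.343). Elovl5 over Elovl1 differed by 0.01 (adjusted exact permutation p = 0.968), with 1.03 to 1.23 in KO and 0.877 to 1.35 in WT. Fads3 held 40.3 to 52.6% of summed Fads RPKM in KO and 50.5 to 57.6% in WT.

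**Figure D3:**
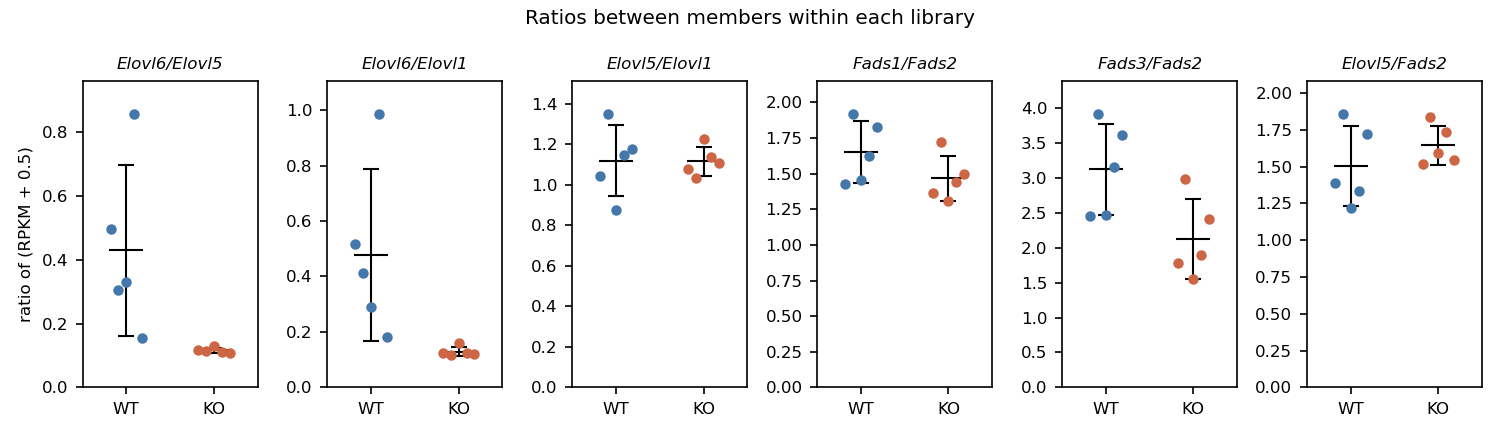
The 6 ratios between members within each library, as (RPKM + 0.5) over (RPKM + 0.5), on vertical axes from 0. Points are animals, and bars are the mean and SD of 5. The KO points of the left 2 panels, Elovl6 over Elovl5 and over Elovl1, lie between 0.109 and 0.159 and below all WT points of the same panel.

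The genes around these enzymes were described from 9 lists of 90 genes, 81 of them tested, of which 5 rose and 16 fell, beside 4.00% called higher and 1.95% lower over all genes tested. A single call in a short list is to be read against those shares. In the malonyl-CoA and palmitate supply list, which feeds the elongases, 6 of 8 fell (background 1.95% lower) with a median of -1.21. They included Fasn, fatty acid synthase, at 126 ± 10 RPKM in KO and 623 ± 181 in WT (-2.25), and Acaca, which makes malonyl-CoA, at 7.38 ± 0.36 and 31.6 ± 8.4 RPKM (-1.99). Me1, a source of NADPH, fell by 1.62 and Acacb by 1.45 on the log2 scale (limma, adjusted p of 9.29e-05 for Fasn, 6.09e-05 for Acaca, 0.00358 for Me1 and 0.00389 for Acacb). These levels were lower in KO, as were the adipocyte markers given above, and the part of the marker shift in them was not tested.

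The elongation cycle partners, which reduce and dehydrate the product of the Elovl step, gave 0 rises and 1 fall among 6. Hacd2, a dehydratase, was 7.11 ± 1.47 RPKM in KO and 11.9 ± 2.1 RPKM in WT (-0.71, limma adjusted p = 0.027), while Tecr, the last reductase, was 71.5 ± 12.7 and 74.3 ± 9.8 RPKM. Of the 6 genes of the electron chain that serves desaturases, Cyb5r3, a cytochrome b5 reductase, rose by 0.33 (limma, adjusted p = 0.0354). Among 5 other fatty acyl desaturases, Degs1, which makes ceramide from dihydroceramide, rose by 0.37, and Scd1, the stearoyl-CoA desaturase that uses the product of Elovl6, fell by 3.54, from 2472 ± 672 RPKM in WT to 214 ± 68 in KO (limma, adjusted p = 0.0231 and 1.64e-05). Of 4 ceramide synthases, Cers2, which takes very long acyl chains, rose by 0.24 (limma, adjusted p = 0.0458).

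In the list of acyl activation and phospholipid acylation, 1 of 13 rose and 2 fell. Lpcat3, which places polyunsaturated chains in phospholipids, rose by 0.36, and Acsl1, an acyl-CoA synthetase of adipocytes, fell by 1.43 (limma, adjusted p = 0.0307 and 6.09e-05). The other fall was Lpgat1, a lysophospholipid acyltransferase, at -0.59 (limma, adjusted p = 0.0177). Of 12 peroxisomal genes of chain shortening, 2 fell, among them the transporter Abcd2, by 0.45 (limma, adjusted p = 0.0444). Of 20 transcription factors and SREBP proteins known to act on elongase and desaturase genes, 0 rose and 4 fell: Pparg (-1.11), Ppara (-0.91), Mlxipl, which encodes ChREBP (-0.86), and Srebf1 (-0.79). Their adjusted p-values from limma were 0.00026, 0.00417, 0.0101 and 0.0303. Srebf1 measured 40.7 ± 4.3 RPKM in KO and 72.9 ± 22.8 RPKM in WT. Of 7 neighbours of the Fads genes, Tmem258 rose by 0.41 (limma, adjusted p = 0.045). All 5 rises in these lists (Cyb5r3, Degs1, Lpcat3, Cers2 and Tmem258) lost their call under both scalings, while the falls kept theirs. Without single libraries, Cers2 and Abcd2 kept the call in 1 of 10 fits, Tmem258 in 2, Cyb5r3 in 3, Lpcat3 and Srebf1 in 4, and Degs1 and Hacd2 in 6.

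**Figure D4:**
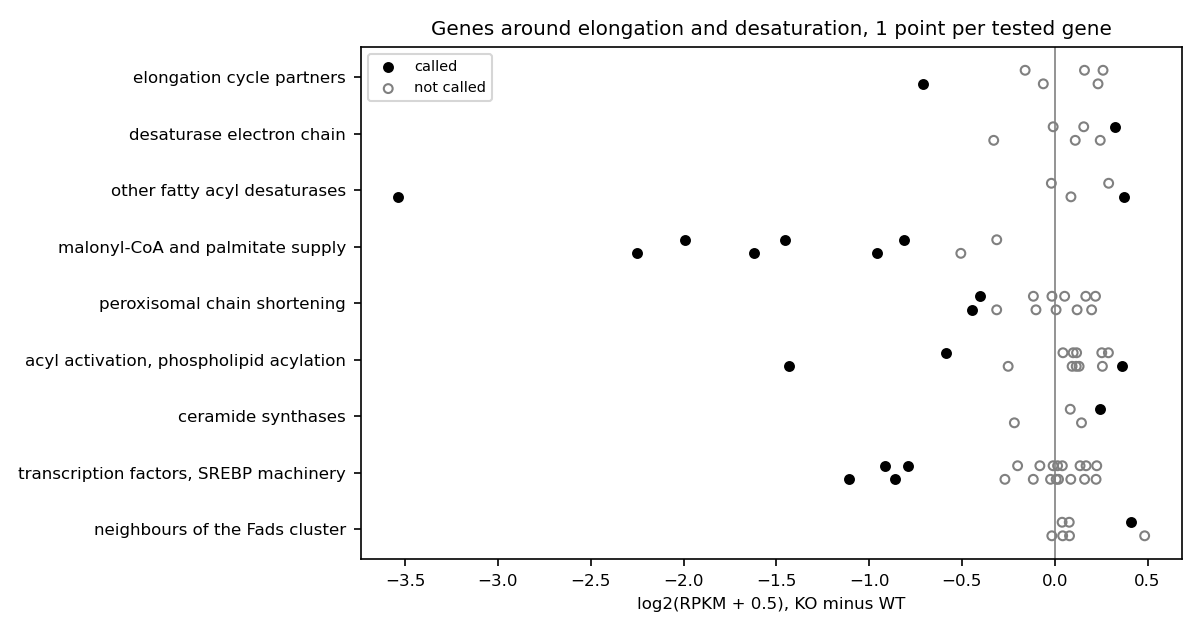
Difference between KO and WT in log2(RPKM + 0.5) (horizontal axis) for each tested gene of 9 lists around elongation and desaturation. Filled points passed the threshold. The 6 filled points of the malonyl-CoA and palmitate supply list lie between -2.25 and -0.81, while most elongation cycle partners and peroxisomal genes lie near 0.

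The genes most like each called member were taken by Pearson correlation over the 10 libraries after the group means were removed, as a description. For Elovl1 these were Susd2 (0.97), Pcdhb14 (0.94), Slc11a1 (0.94), Gusb (0.94) and Colgalt1 (0.93). For Elovl5 they were Dynlt3 (0.95), Cd81 (0.92), Vps13b (0.92), Evi5 (0.91) and Casc4 (0.91). These are the highest of 17038 genes over 10 libraries that share a tissue and a workflow, so their height is a result of the choice.

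Elovl6 was the most variable member within WT, and it was compared in the same way after its values were seen. The SD of its log2 values was 0.85 in WT, at the 96.1 percentile of all tested genes, and 0.17 in KO, at the 50.6 percentile. Its likeness was highest with Me1 (0.98), then Gpd2 (0.95), Ddrgk1 (0.93), Bag4 (0.92) and Spa17 (0.92). They are the highest of 17038 genes, so their height and a shared order of libraries follow from the choice. Because the SD was larger in WT, likeness to Elovl6 rests mainly on the WT libraries. Me1 measured 11.3, 11.8, 13.1, 10.1 and 11.05 RPKM in KO and 42.8, 33.6, 30.5, 62.9 and 22.5 RPKM in WT. The WT libraries fell in one order for both genes, with WT 86 highest, then WT 2, WT 9 and WT 19, and WT 89 lowest. Acly, which makes acetyl-CoA from citrate, had that order too, at 147, 137, 93.9, 151 and 74.2 RPKM in WT, and 75.5 to 90.7 RPKM in KO (limma, adjusted p = 0.128). Fasn shared the highest and the lowest library but not the order between, at 542, 692, 644, 862 and 373 RPKM in WT. Over the malonyl-CoA and palmitate supply list, likeness to Elovl6 ranged widely, at 0.87 for Acly, 0.85 for Acss2, 0.80 for Fasn, 0.74 for Acaca, 0.69 for Slc25a1, 0.26 for Acacb and 0.07 for Mlycd beside Me1. It was 0.58 for Scd1, -0.06 for Mlxipl, -0.30 for Srebf1 and -0.0043 for Adipoq. Among WT libraries Ucp1 was also highest in WT 86 and lowest in WT 89, at 13.4 and 0.203 RPKM. Unlike Elovl6 and Me1, it was lower in WT 9 than in WT 19, at 0.456 and 1.43 RPKM. Among KO libraries Ucp1, Elovl6 and Me1 were each highest in KO 7, where Ucp1 was 5.70 RPKM. The part of brown or beige adipocytes in the Elovl6 and Me1 values was not tested.

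**Figure D5:**
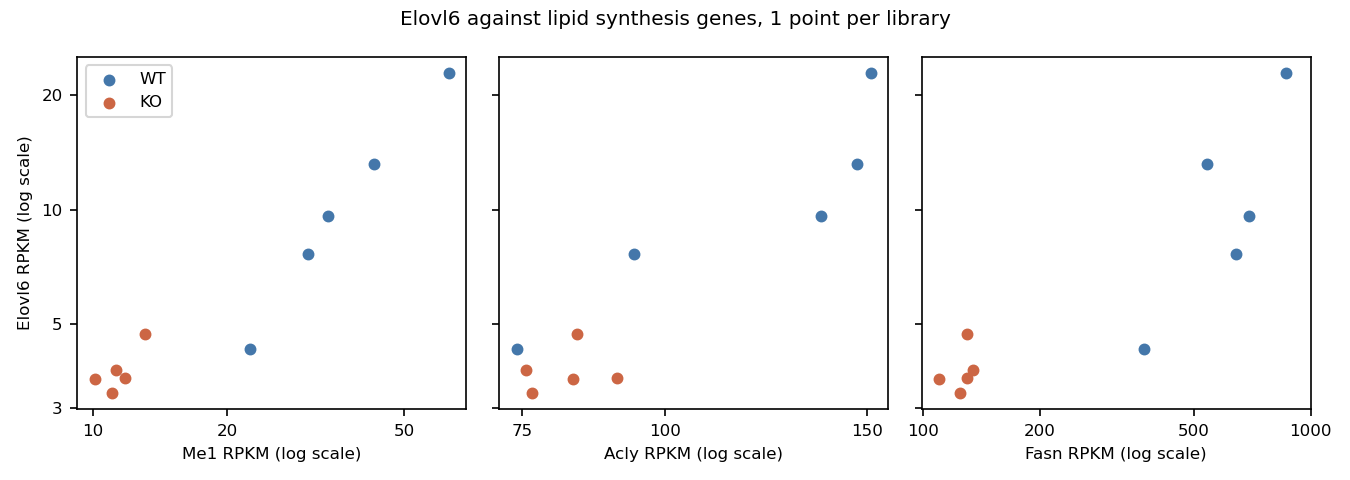
Elovl6 RPKM (vertical axis, log scale) against Me1, Acly and Fasn RPKM (horizontal axes, log scale), 1 point per library. WT points run from 4.31 to 22.9 RPKM of Elovl6, in the same order as Me1 and Acly. With Fasn they share only the highest and the lowest library. The KO points lie together at 3.29 to 4.72 RPKM of Elovl6.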

How the data were processed

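Gene and transcript tables in RPKM were deposited by the authors, the transcript unit being given by the table's name. The submitters' processing notes list bcl2fastq, STAR 2.0.4b1, Subread and featureCounts 1.4.52. No source used here gives the genome build, the annotation or the strand setting. Repeated rows held equal values and were kept once. Whole reads were recovered for 100% of 25122 genes above 0 in at least 3 libraries (tolerance 0.001 reads), 16179 of them with the GENCODE M21 exon length. The others, 7 of the 10 members among them, take the smallest whole numbers that fit and so are lower limits.

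Features at 0.5 RPKM or more in at least 5 libraries were tested, on log2(RPKM + 0.5), with limma 3.58.1 (eBayes with trend and robust, statmod 1.5.0, R 4.3.3), 2-sided, with Benjamini-Hochberg adjustment over the whole table. A fold change on that scale understates the change of low genes. The reported SE is limma's moderated SE. The script was checked on simulated data. Ratios were compared by exact permutation of the group labels. Alternatives changed the pseudocount (0.1 or 1), the filter (none, or 1 RPKM), the scaling between libraries (median-ratio or quantile), the moderation (neither trend nor robust), the weights of libraries, and the libraries kept (each left out in turn). A further one was limma-voom on recovered reads (at least 5 reads in 5 libraries), which was chosen after seeing the data.

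Members and lists were chosen with earlier results of these data known. The rule for named genes took all 10 members, the 5 genes most like each called member, up to 4 called genes per list, and otherwise the member of the list with the highest level. Elovl6 likeness, Acly, Acss2, Tecr, Cdc20, Ucp1, the neutrophil genes, Lum, Cspg4, Slc25a1, Mlycd and the genes like Elovl6 were chosen once their values were known. The printed promoter stretches leave out bases that GENCODE M21 places in an exon of the gene. One gene of a pathway list is not reported here.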

Additional observations from a re-analysis of the deposited data

Results flagged for a closer look

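Elovl3 in WT 86 measured 0.324 RPKM, far above the other 4 WT libraries, with a gap to the nearest of 0.859 of the group's range. It stands on 7 recovered reads. Fads1 in KO 8 measured 30.24 RPKM, below the other KO libraries, with a gap of 0.736 of the range, and still within the WT range. The check was made in 20 groups of 5, 2 for each gene, and chance flags about 1 in 20 groups.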

How the results depend on the processing

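The 2 members called higher became 1 without the filter on low values, 0 under median-ratio scaling, 1 under quantile normalization, and 1 to 2 when a library was left out, with 1 where KO 1, KO 7 or KO 8, or WT 2, WT 19 or WT 86, was absent. The 0 called lower became 1 (Elovl6) with a filter at 1 RPKM and 1 with array weights, and 0 to 1 over left-out libraries. The other settings (pseudocounts, eBayes without trend and robust) left both counts as they were. Fads1 was at -0.0286 under median-ratio scaling and -0.0343 under quantile normalization, and Elovl2 at -0.0169 with voom. Elovl5 over Elovl1 ran from -0.0765 to 0.0788 over left-out libraries, below 0 without KO 7, WT 2 or WT 19. The cause of these moves was not tested. By voom, 9 members were tested, 3 were called higher (Elovl1, Elovl5 and Elovl7) and 0 lower. The share of rises among all calls moved most with scaling: 149 higher and 392 lower under quantile normalization, against 681 and 332. No paired analysis was possible because the animal numbers are not shared between KO and WT. Depth limits Elovl2, Elovl3 and Elovl7, with at most 32 recovered reads in a library. For these genes the recovered reads are the smallest whole numbers that fit.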
